A study of Homo sapiens with 6 samples.

Results

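Transcripts of 8 genes for the coat and neck of caveolae, CAV1, CAV2, CAVIN1, CAVIN2, CAVIN3, EHD2, PACSIN2 and PACSIN3, were taken by symbol from the 46427 genes in the deposited gene table. All 8 were present and all 8 passed the expression filter, which left 16966 genes for the comparison. The study picked CAV1 and CAVIN2 on these same libraries, so their direction is not independent evidence.

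Caveolae are flask-shaped pits of the plasma membrane that are abundant in cells exposed to stretch, and they can flatten out when membrane tension rises. Their coat is built from caveolins, hairpin proteins inserted in the inner leaflet of the membrane, and from cavins, which assemble on the caveolins from the cytoplasm. The neck is held by the ATPase EHD2 and shaped by the curved F-BAR proteins of the PACSIN family.

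RNA was measured in MDA-MB-231 cells, an established human cell line from a metastatic breast cancer, grown in low glucose medium with serum. The 3 libraries of the control-siRNA group have the genotype label WT, and the 3 of the TAZ-siRNA group are labelled as TAZ knockdown after transfection with siRNA against WWTR1, the gene of the coactivator TAZ, which acts with TEAD transcription factors. Cells of both groups were detached with trypsin and EDTA and frozen before the RNA was taken. The model is a single cell line with a single siRNA reagent, so an effect of the reagent and an effect of TAZ loss cannot be told apart, and in bulk RNA a smaller number of expressing cells and less RNA per cell cannot be told apart either. The p-values measure the spread between these cell preparations.

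Estimated counts summed to between 48307548 and 71749634 per library, at which 3 counts correspond to 0.0411 to 0.0618 CPM (the count as a rate per library total, after TMM scaling). The level of WWTR1 was 192, 189.7 and 190.0 CPM with control-siRNA and 17.3, 17 and 15.1 CPM with TAZ-siRNA (log2 fold change -3.53, standard error (SE) 0.0613, edgeR adjusted p = 2.47e-10), in the labelled direction. The label reads epithelial cell, and with control-siRNA the epithelial keratins KRT18 and KRT8 were at 557 and 500.1 CPM. Beside them were 3574 CPM of VIM and 524 CPM of CD44, which mark mesenchymal-like breast cancer cells. The epithelial cadherin CDH1 was at 0.290 CPM. Of the other genes listed as low in this line, EPCAM was at 1.30 CPM, but ERBB2 was at 46.7 CPM. ESR1 and PGR did not pass the expression filter. Of markers of other cell types, the endothelial genes PECAM1 and CDH5 were at 4.67 and 1.39 CPM with control-siRNA and 5.61 and 1.63 CPM with TAZ-siRNA, and the leukocyte gene PTPRC had no count in any library. TAZ-siRNA replicate 3 deviated most from its group mean, by 0.124 on the log2 scale (root mean square over abundant genes) against 0.0556 to 0.0982 in the other 5 libraries.

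Both caveolins and CAVIN2 were lower with TAZ-siRNA, EHD2 was slightly higher, and CAVIN1, CAVIN3, PACSIN2 and PACSIN3 missed the threshold of 0.05 on the adjusted p. The quasi-likelihood test of edgeR, adjusted over every gene tested, called 4 of the 8 genes at 0.05, 3 lower and 1 higher. In the same comparison 22.1% of all genes tested were called, 10.2% lower and 11.9% higher. The median log2 fold change of the 8 genes was -0.13, against -0.0054 over all genes. The libraries of both groups did not overlap for 7 of the 8 genes in CPM, where 39.6% of all genes tested showed no overlap. For PACSIN3 this rested on 27.376 CPM with TAZ-siRNA against 27.382 CPM with control-siRNA. In TPM, PACSIN2 and PACSIN3 overlapped, while CAVIN3 did not. The 8 genes and the lists below were chosen with earlier results of these data known. Their counts and medians are therefore a description and not independent evidence.

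**Figure D1:**
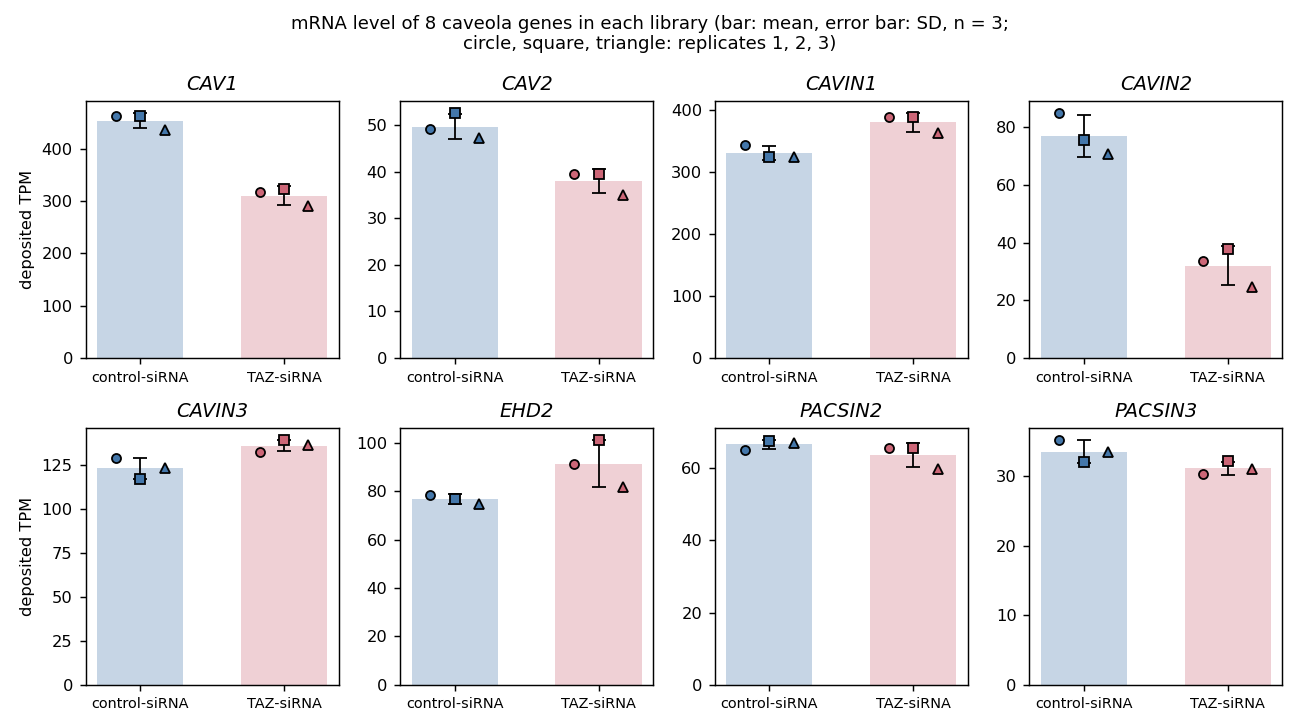
Deposited TPM (abundance scaled for transcript length and library size) of each of the 8 genes, with a bar for the mean, an error bar for the SD of 3 libraries and 1 symbol per library. CAV1, CAV2 and CAVIN2 lie lower in every TAZ-siRNA library than in any control-siRNA library, and CAVIN1, CAVIN3 and EHD2 lie higher, while PACSIN2 and PACSIN3 overlap between the groups.

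CAV1 encodes caveolin-1, the principal structural protein of caveolae outside muscle. The gene spans chromosome 7 (build GRCh38) from 116525009 to 116561185. Its level was 532, 530.4 and 522 CPM with control-siRNA and 346, 354 and 343 CPM with TAZ-siRNA. The groups were widely separated, and each group was tight. The mean fell from 528 ± 5.06 to 348 ± 5.77 CPM (each SD, n = 3), or 65.9% of the control-siRNA level. On the log2 scale the change was -0.60 (SE 0.0515, 95% interval -0.72 to -0.49, edgeR adjusted p = 9.47e-05). Removing any single library kept the value between -0.61 and -0.59.

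CAV2 encodes caveolin-2, which needs caveolin-1 to reach the cell surface. It lies before CAV1 on the same chromosome, from 116499738 to 116508541, with 16468 bases between the genes. Its level was 65.7, 70.5 and 65.9 CPM with control-siRNA and 49.9, 50.4 and 48.2 CPM with TAZ-siRNA. Every TAZ-siRNA library was again below every control-siRNA library. The mean fell from 67.4 ± 2.72 to 49.5 ± 1.15 CPM (each SD, n = 3), or 73.5% of the control-siRNA level. On the log2 scale the change was -0.44 (SE 0.0518, 95% interval -0.56 to -0.33, edgeR adjusted p = 0.000383).

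CAVIN2, also called SDPR, encodes a cavin that helps to bend the caveolar membrane. It lies on chromosome 2 from 191834310 to 191847088. Its level was 118, 105 and 102 CPM with control-siRNA and 44.2, 50.1 and 35.2 CPM with TAZ-siRNA. Every TAZ-siRNA library was far below every control-siRNA library, and TAZ-siRNA replicate 3 was the lowest of all. The mean fell from 108 ± 8.33 to 43.2 ± 7.53 CPM (each SD, n = 3), or 39.9% of the control-siRNA level. On the log2 scale the change was -1.33 (SE 0.119, 95% interval -1.60 to -1.05, edgeR adjusted p = 0.000306). It was the 91st lowest value among the 16966 genes tested, and without TAZ-siRNA replicate 3 it was -1.20.

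TAZ acts through TEAD factors, whose core motif is GGAATG or, on the other strand, CATTCC. For this reason the 250 bases before 1 annotated start of each of the 3 genes that fell, and of EHD2, are shown. They were read from RefSeq promoter windows (GRCh38.p14), which matched 5 of the 8 genes, and bases of that core are in capitals. The windows are chr7:116524759-116525008 (plus strand) for CAV1, chr7:116499488-116499737 (plus strand) for CAV2, chr2:191847089-191847338 (minus strand) for CAVIN2 and chr19:47713172-47713421 (plus strand) for EHD2.
CAV1: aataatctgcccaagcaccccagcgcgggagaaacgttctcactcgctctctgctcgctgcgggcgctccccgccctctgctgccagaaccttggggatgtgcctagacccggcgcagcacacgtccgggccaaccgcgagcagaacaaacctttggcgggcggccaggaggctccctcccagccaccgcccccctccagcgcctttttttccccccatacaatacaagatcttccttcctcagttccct
CAV2: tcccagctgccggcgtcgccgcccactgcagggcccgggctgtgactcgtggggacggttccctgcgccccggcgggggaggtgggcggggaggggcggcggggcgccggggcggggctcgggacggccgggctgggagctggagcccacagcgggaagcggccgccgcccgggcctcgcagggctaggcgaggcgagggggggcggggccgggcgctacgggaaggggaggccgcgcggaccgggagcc
CAVIN2: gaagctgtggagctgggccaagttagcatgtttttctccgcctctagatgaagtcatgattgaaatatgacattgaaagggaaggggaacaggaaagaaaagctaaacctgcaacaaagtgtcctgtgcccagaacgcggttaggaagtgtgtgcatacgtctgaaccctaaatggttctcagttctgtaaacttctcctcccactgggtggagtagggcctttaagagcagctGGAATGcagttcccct
EHD2: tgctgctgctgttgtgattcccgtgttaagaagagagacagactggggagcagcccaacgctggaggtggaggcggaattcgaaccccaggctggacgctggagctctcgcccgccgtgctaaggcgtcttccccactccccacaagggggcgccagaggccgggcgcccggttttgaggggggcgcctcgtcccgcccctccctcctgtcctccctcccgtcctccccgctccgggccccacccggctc
The CAVIN2 window holds the core once, with its first base 16 bases before the start. No core was found in the windows of CAV1, CAV2 and EHD2 shown here. The CAV1 window shown lies before the start of NM_001172895 (18.4 TPM with control-siRNA). The leading CAV1 transcript, NM_001753 (242 TPM), starts at 116525036, and its window overlaps the one shown. PACSIN2 has 6 windows, of which 4 hold the core, but 3 of these overlap and share the same match. These 4 lie before starts of transcripts at 2.12 TPM or less with control-siRNA. The leading PACSIN2 transcript, NM_001184970 (60.4 TPM with control-siRNA), starts at 43015149, and the window before that start does not hold the core. The windows of the other starts of CAV1 and CAV2 have none. Among 35116 promoter windows of the same length, 11.9% hold the core, and 1.16% hold a CArG box, the motif of SRF, which none of the 13 windows of these genes holds. The G and C content was 63.6% before CAV1, 83.2% before CAV2, 48% before CAVIN2 and 69.6% before EHD2, against a median of 58% over all windows. A match of letters is a description and not evidence of binding.

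CAVIN1, also called PTRF, encodes the cavin without which caveolae do not form. It lies on chromosome 17 from 42402449 to 42423269. Its level was 553, 523 and 545 CPM with control-siRNA and 594, 600.3 and 600.4 CPM with TAZ-siRNA. Every TAZ-siRNA library was above every control-siRNA library. The means were 540.3 ± 15.7 and 598 ± 3.91 CPM (each SD, n = 3), a change of 0.15 on the log2 scale (SE 0.0538, 95% interval 0.03 to 0.27, edgeR adjusted p = 0.076). The difference therefore missed the threshold here, while DESeq2 gave an adjusted p of 0.0191 for it. Without TAZ-siRNA replicate 3 the adjusted p was 0.0331 by edgeR, and without any other single library it was 0.126 to 0.288.

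CAVIN3 encodes a cavin that binds a protein kinase C isoform, and it lies on chromosome 11 from 6318946 to 6320501. Its level was 60.2, 54.6 and 59.98 CPM with control-siRNA and 58.6, 62.0 and 65.4 CPM with TAZ-siRNA. The groups overlapped in CPM, whereas in TPM every TAZ-siRNA library was above every control-siRNA library. The log2 fold change was 0.09 (SE 0.0604, 95% interval -0.04 to 0.22, edgeR adjusted p = 0.322). With a correction for G and C content and transcript length, its value was 0.16 and its adjusted p 0.0141 by edgeR. The median G and C content of its GENCODE transcripts, 66.5%, was the highest of the 8 genes.

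EHD2 encodes the ATPase that forms oligomers around the caveolar neck and ties caveolae to the membrane. It lies on chromosome 19 from 47713422 to 47743134. Its level was 125, 122 and 124 CPM with control-siRNA and 138, 154 and 134 CPM with TAZ-siRNA. All TAZ-siRNA libraries were above all control-siRNA libraries, and replicate 2 was the highest of them. The mean rose from 124 ± 1.33 to 142 ± 10.6 CPM (each SD, n = 3), a change of 0.20 on the log2 scale (SE 0.0568, 95% interval 0.07 to 0.32, edgeR adjusted p = 0.0314). Removing a library ended the call in 5 of 6 cases, with adjusted p-values of 0.0624 to 0.125. The call held without TAZ-siRNA replicate 3 (log2 fold change 0.24, adjusted p = 0.00117).

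PACSIN2 and PACSIN3 encode F-BAR proteins, also called syndapins, that bind curved membrane at the neck. PACSIN2, on chromosome 22 from 42869766 to 43015176, was at 96.2, 100.02 and 103 CPM with control-siRNA and 91.8, 92.6 and 90.7 CPM with TAZ-siRNA. The groups did not overlap in CPM but did in TPM, and the shift was small, with a change of -0.12 on the log2 scale (SE 0.0461, 95% interval -0.22 to -0.02, edgeR adjusted p = 0.0842). PACSIN3, on chromosome 11 from 47177521 to 47186446, was at 30.1, 27.4 and 29.9 CPM with control-siRNA and 24.7, 27.0 and 27.4 CPM with TAZ-siRNA. Its highest TAZ-siRNA library and its lowest control-siRNA library were level to 3 digits in CPM and overlapped in TPM. The log2 fold change was -0.14 (SE 0.0652, 95% interval -0.29 to -6.6e-06, edgeR adjusted p = 0.14). With the correction for G and C content and length, the value for PACSIN2 was -0.16 (edgeR adjusted p = 0.00565).

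**Figure D2:**
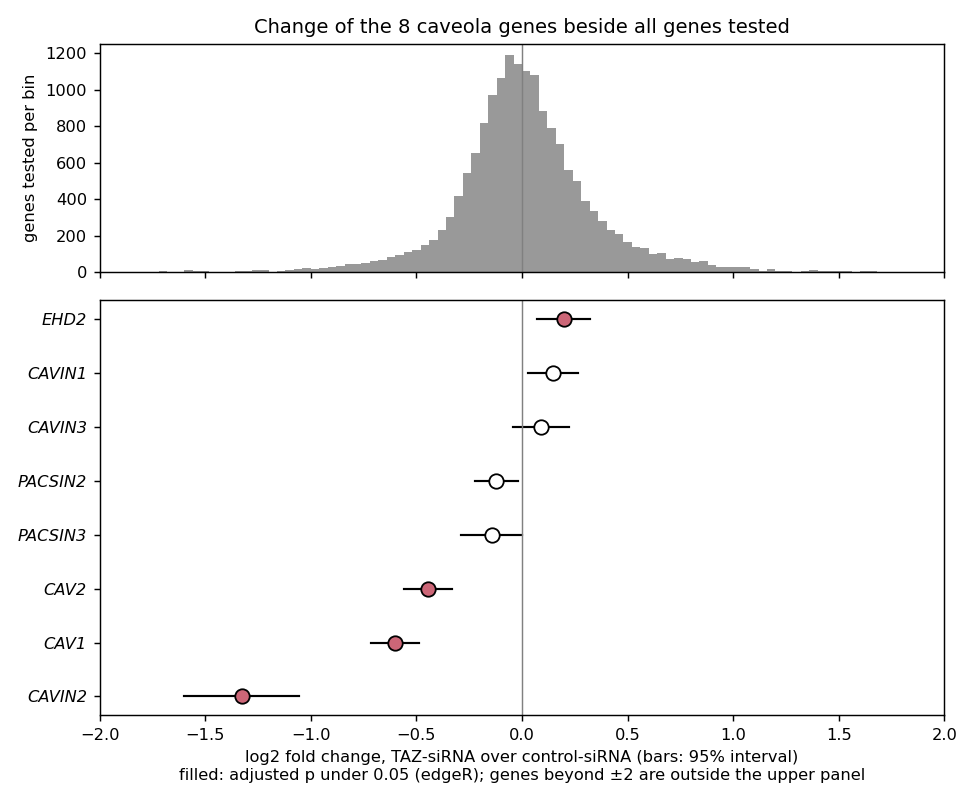
Upper panel, number of genes tested at each log2 fold change (TAZ-siRNA over control-siRNA). Lower panel, the log2 fold change of the 8 genes with its 95% interval, filled where the adjusted p was under 0.05 by edgeR, from 0.20 for EHD2 down to -1.33 for CAVIN2, which lies in the lower tail of all genes.

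**Figure D3:**
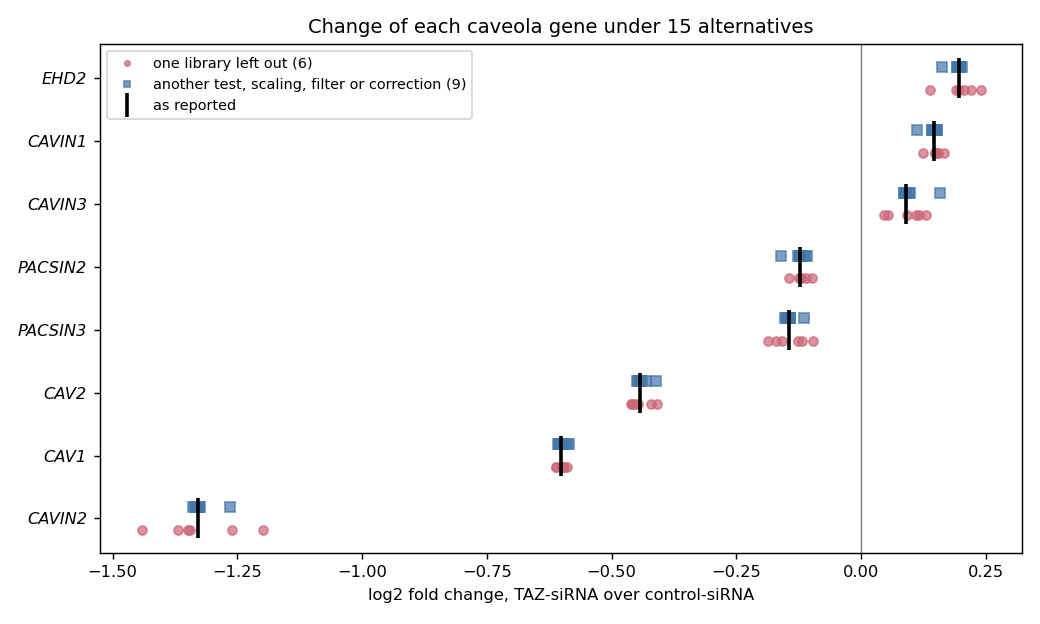
Log2 fold change of each of the 8 genes as reported (black line), with 1 library left out (circles, 6) and with another test, scaling, filter or correction (squares, 9). No value crosses 0, and CAVIN2 has the widest spread, from -1.44 to -1.20 with a library left out.

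Levels of different genes were compared on the length-scaled TPM values. With control-siRNA the order was CAV1 (453 ± 14.7 TPM, SD, n = 3), CAVIN1 (331 ± 11.6), CAVIN3 (123 ± 6.01), CAVIN2 (77.1 ± 7.25), EHD2 (76.7 ± 2.04), PACSIN2 (66.5 ± 1.28), CAV2 (49.6 ± 2.70) and PACSIN3 (33.6 ± 1.63). Of these neighbours, only CAVIN2 and EHD2 overlapped between libraries. With TAZ-siRNA the order was CAVIN1 (380.3 ± 15.3 TPM, SD, n = 3), CAV1 (311 ± 17.2), CAVIN3 (136 ± 3.29), EHD2 (91.5 ± 9.69), PACSIN2 (63.6 ± 3.42), CAV2 (38.0 ± 2.54), CAVIN2 (32.1 ± 6.73) and PACSIN3 (31.2 ± 0.916). CAV2, CAVIN2 and PACSIN3 overlapped with their neighbours there. CAV1 stood above CAVIN1 in each control-siRNA library and below it in each TAZ-siRNA library.

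The ratio of each gene to CAV1 within a library does not depend on the scaling of the library. The CAVIN1 to CAV1 ratio in TPM was 0.746, 0.703 and 0.744 with control-siRNA and 1.22, 1.21 and 1.25 with TAZ-siRNA. Every TAZ-siRNA library was above every control-siRNA library, and the mean difference was 0.75 on the log2 scale (exact permutation p = 0.1, 2-sided, the lowest value possible with 3 libraries in each group). The EHD2 to CAV1 ratio went from 0.169 ± 0.0023 (SD, n = 3) to 0.294 ± 0.0169 (SD, n = 3). The CAV2 to CAV1 ratio moved least, from 0.109 ± 0.00395 (SD, n = 3) to 0.122 ± 0.00183 (SD, n = 3). CAVIN2 was the only gene whose ratio to CAV1 was lower with TAZ-siRNA, at 0.184, 0.164 and 0.162 against 0.106, 0.117 and 0.0848. All 7 ratios were separated between the groups, each with an exact permutation p of 0.1 and an adjusted p of 0.1 over the 7. They share CAV1, so they are not independent, and the fall of CAV1 raises the ratio of any gene that changed little. The PACSIN2 and PACSIN3 ratios were higher by 0.48 and 0.44 on the log2 scale. The log2 fold changes of these 2 genes themselves were -0.12 and -0.14.

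Added together, the caveolin transcripts came to 503 ± 16.9 with control-siRNA and 349 ± 19.8 TPM with TAZ-siRNA (each SD, n = 3). The cavin transcripts came to 531 ± 23.4 TPM (SD, n = 3) and 548 ± 22.3 TPM (SD, n = 3), and these sums overlapped. The cavin sum per caveolin was 1.06 ± 0.0449 with control-siRNA and 1.57 ± 0.0279 with TAZ-siRNA (each SD, n = 3). Within the cavin sum, the share of CAVIN2 was 15.2, 14.6 and 13.6% with control-siRNA and 6.07, 6.68 and 4.71% with TAZ-siRNA. The share of CAVIN1 was 62.4 ± 0.565% (SD, n = 3) and 69.4 ± 0.645% (SD, n = 3), and that of CAVIN3 was 23.1 ± 0.6% (SD, n = 3) and 24.8 ± 1.09% (SD, n = 3). EHD2, PACSIN2 and PACSIN3 together were at 177 ± 2.05 TPM (SD, n = 3) and 186 ± 13.2 TPM (SD, n = 3). These sums are given without a test.

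**Figure D4:**
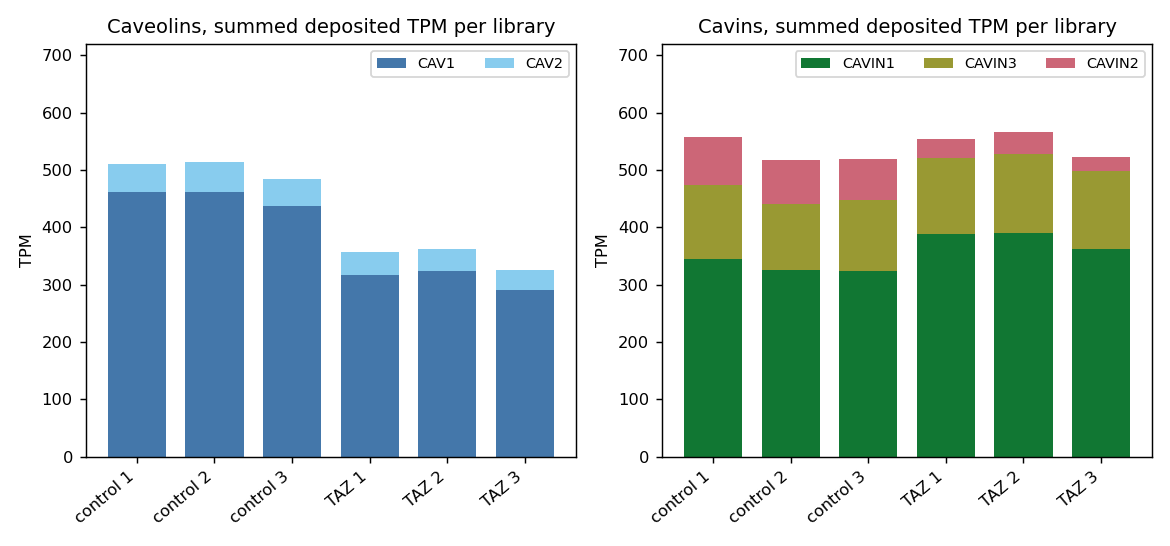
Summed deposited TPM of the caveolins (left) and of the cavins (right) in each library, with 1 colour per gene. The caveolin bars are at 484 to 514 TPM with control-siRNA and 326 to 363 TPM with TAZ-siRNA, while the cavin bars stay between 517 and 567 TPM and the CAVIN2 part shrinks.

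The transcript table showed which RefSeq transcripts carried these levels. CAV1 has 4 transcripts, and NM_001753, which starts at the upstream promoter and encodes the full-length alpha form, held 53.4 ± 2.67% of the CAV1 TPM with control-siRNA and 51.9 ± 1.41% with TAZ-siRNA (each SD, n = 3). Its share did not separate the groups (exact permutation p = 0.4, 2-sided). The 2 transcripts from the upstream starts summed to 261 ± 18.9 with control-siRNA and 173 ± 9.0 TPM with TAZ-siRNA (each SD, n = 3), and the 2 from the start at 116526362 summed to 193 ± 17.2 TPM (SD, n = 3) and 138 ± 8.76 TPM (SD, n = 3). These sums were at 66.3% and 71.5% of control-siRNA, and since the grouping by start was chosen after the values were seen, no test was made.

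Of the 4 CAV2 transcripts, NM_001233 and NM_001206747 have the same ends and length in the table, so reads could have been divided between them. Together they summed to 46.3 ± 2.96 with control-siRNA and 35.3 ± 1.77 TPM with TAZ-siRNA (each SD, n = 3). CAVIN1 was carried by NM_012232 at 98.6 ± 0.259% (SD, n = 3) and 99.0 ± 0.198% (SD, n = 3) of its TPM, and PACSIN2 by NM_001184970 at 90.8 ± 2.17% (SD, n = 3) and 93.4 ± 2.54% (SD, n = 3). The share of NM_016223 in PACSIN3 ran from 69.7 to 88.1% with control-siRNA and from 53.7 to 84.8% with TAZ-siRNA, so it was not stable between replicates. CAVIN2, CAVIN3 and EHD2 have 1 transcript each in the table. The largest shift in the share of a leading transcript was that of NM_001233 in CAV2, from 71.9 ± 2.65% to 64.0 ± 5.47% (each SD, n = 3), with the limit on telling it from NM_001206747 given above. Exact permutation p-values for the leading transcripts of the 5 genes with several were 0.2 to 0.8, in a design that cannot go below 0.1.

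Genes with a pattern like these were sought among the 9938 genes that averaged 10 CPM or more, by the Euclidean distance over 6 libraries of log2 CPM values less the control-siRNA mean. The 3 nearest to CAVIN2 were CCN1, a matricellular gene widely used as a readout of YAP and TAZ (distance 0.174, log2 fold change -1.42), TGFB2, a ligand of the TGF-beta family (0.386, -1.35), and BIRC3, an inhibitor of apoptosis (0.608, -1.03). The 3 nearest to CAV1 were FAM199X (distance 0.0846, log2 fold change -0.59), RANBP1, a cofactor of nuclear transport (0.101, -0.61), and PGAM1, a glycolytic enzyme (0.102, -0.58). The 3 nearest to CAV2 were NOL6 (0.0711, -0.46), the valyl-tRNA synthetase gene VARS1 (0.0729, -0.44) and MECR (0.0817, -0.46). The distances named for CAVIN2 were larger than those for CAV1 and CAV2, as was its change. These distances describe 6 libraries that fall into groups, and no test was made.

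Relatives of these genes from the same families were read from the same fit. CAV3, the muscle caveolin, did not pass the filter, with 7, 2 and 6 counts with control-siRNA and 19, 7 and 20 counts with TAZ-siRNA. EHD3 and PACSIN1 did not pass it either. Of the 3 relatives tested, 0 had an adjusted p under 0.05 by the edgeR fit reported here, by DESeq2 or by limma. That edgeR fit called 22.1% of all genes tested. An unadjusted p under 0.05 was found for 2. By edgeR, 1 was called without TAZ-siRNA replicate 3 and 1 with the correction for G and C content and length. Counts under further settings are given below. EHD1, an EHD2 relative of recycling endosomes, went from 165 ± 6.98 to 182 ± 7.38 CPM (each SD, n = 3, edgeR adjusted p = 0.0768), EHD4 from 91.2 ± 3.58 to 82.5 ± 1.61 CPM (each SD, n = 3, edgeR adjusted p = 0.0552). CAVIN4, the muscle cavin, was at 1.01 ± 0.233 and 1.17 ± 0.14 CPM (each SD, n = 3).

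Among 13 genes that move caveolae or link them to actin, 0 had an adjusted p under 0.05 by the edgeR fit reported here, by DESeq2 or by limma. By edgeR, 22.1% of all genes tested were called. At an unadjusted p under 0.05 there were 2. By edgeR, 2 were called without TAZ-siRNA replicate 3 and 1 with the correction for G and C content and length. Of the 13, the 2 at an unadjusted p under 0.05 were NOSTRIN, a trafficking adaptor of endothelial nitric oxide synthase (log2 fold change -0.37, edgeR adjusted p = 0.0542), and the syntaxin STX6 (0.14, edgeR adjusted p = 0.0641). FLNA, the actin crosslinker that binds caveolin-1, was at 1412 ± 27.5 and 1457 ± 110.2 CPM (each SD, n = 3), with a log2 fold change of 0.05 and a 95% interval of -0.10 to 0.19. DNM2, the dynamin that cuts vesicles from the membrane, was at 191 ± 2.21 and 201 ± 2.75 CPM (each SD, n = 3, edgeR adjusted p = 0.244). The median log2 fold change of the 13 genes was 0.03.

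Of 9 flotillins and other scaffolds of membrane rafts, 4 were lower by edgeR, or 44.4%, where 22.1% of all genes tested were called and 10.2% were called lower. The median log2 fold change of the list was -0.10. FLOT1 and FLOT2, which form raft domains apart from caveolae, were not among them (log2 fold changes 0.06 and 0.04). The genes called were STOML2 (-0.34, edgeR adjusted p = 0.00372), PHB2 (-0.31, adjusted p = 0.00659) and PHB1, listed as PHB (-0.21, adjusted p = 0.0341), which are known for roles in mitochondria, and STOM (-0.16, adjusted p = 0.0466). With the exception of TAZ-siRNA replicate 3, leaving out any library reduced the count to 2.

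Clathrin-coated pits are the other main coated pit of the cell surface. Of 16 genes of the clathrin coat and its adaptors, 4 were higher and 1 was lower, or 31.2% called against 22.1% of all genes tested. The 4 that rose were ITSN1 (log2 fold change 0.27, edgeR adjusted p = 0.0313), EPN2 (0.26, adjusted p = 0.00736), FCHO2 (0.23, adjusted p = 0.0461) and HIP1R (0.19, adjusted p = 0.0349), all adaptors or accessory proteins. The light chain CLTB fell (-0.19, edgeR adjusted p = 0.0497). The heavy chain CLTC and the AP-2 subunits were not called. Without TAZ-siRNA replicate 3 the count was 6, and it was 1 or 2 without any other library.

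Of 11 tested genes for other proteins that curve or cut membranes, 2 were higher, SNX18 (log2 fold change 0.22, edgeR adjusted p = 0.0396) and FNBP1L (0.16, edgeR adjusted p = 0.0495). These are 18.2% of the list, below the 22.1% called over all genes tested. This count was 5 without TAZ-siRNA replicate 3 and 0 or 1 without any other library. Of 5 tested genes of stretch-sensitive or related channels, 3 were higher, where 11.9% of all genes tested were called higher. TMC7 was at 3.99, 3.68 and 3.67 CPM with control-siRNA and 6.14, 7.64 and 6.50 CPM with TAZ-siRNA (log2 fold change 0.84, edgeR adjusted p = 0.000821). PIEZO2 (0.45, edgeR adjusted p = 0.0434) and TMEM63B (0.25, adjusted p = 0.024) also rose. PIEZO1, the stretch-gated channel with the higher level, had a log2 fold change of -0.0057 (edgeR adjusted p = 0.966), and TMEM63A one of -0.17 (edgeR adjusted p = 0.0859). The count of channels called was 1 when any library other than TAZ-siRNA replicate 3 was left out.

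**Figure D5:**
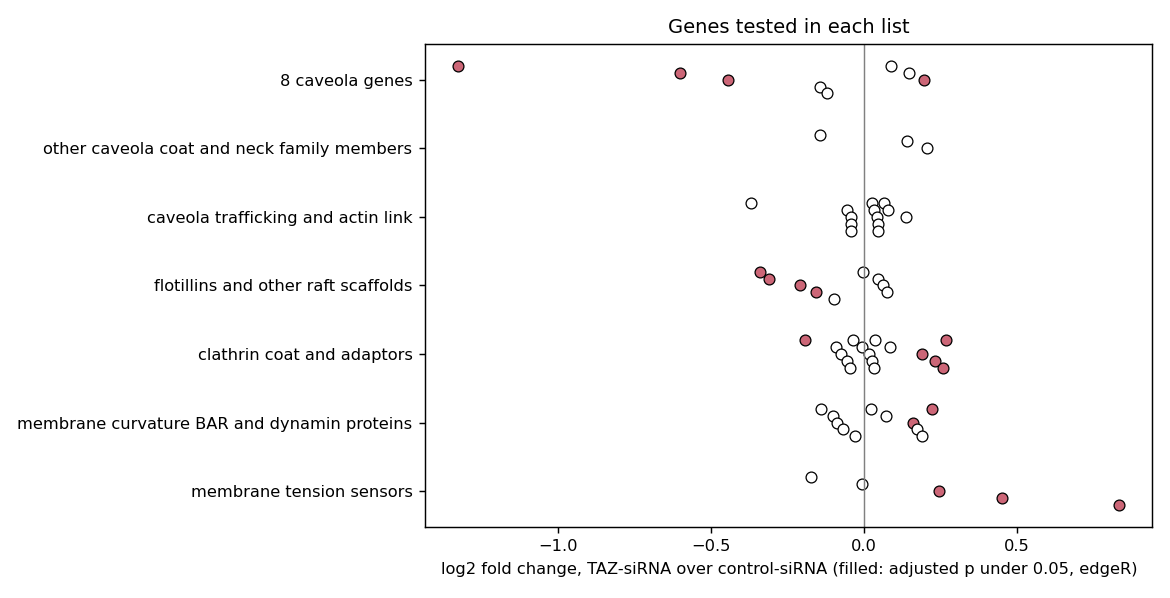
Log2 fold change (TAZ-siRNA over control-siRNA) of each gene tested in the list of 8 caveola genes and in 6 lists of related genes, with 1 point per gene, filled where the adjusted p was under 0.05 by edgeR. CAVIN2, CAV1 and CAV2 are the lowest points of all lists, and TMC7 at 0.84 is the highest.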

How the data were processed

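The study sequenced 3 control-siRNA and 3 TAZ-siRNA preparations of MDA-MB-231 cells with a strand-specific mRNA kit. Per the methods, the authors aligned trimmed reads to the GRCh38 genome by HISAT2, and StringTie then estimated RefSeq transcript abundance. Their versions are not given in the sources used here. The submitters' processing notes also name Bowtie 0.12.2 and the mouse build mm8, with no role. Each estimated count in the deposited tables is a whole number, and StringTie derives such counts from read coverage, so no rounding was done. The deposited FPKM and TPM were scaled by the authors for length and library size. Whether counting used strand is not given. Replicates are numbered 1 to 3 as in the column names. Samples are called separate cell preparations by the study, and replicates differed by more than counting noise (chi-square per degree of freedom 6.79 to 41).

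Counts were tested by the robust quasi-likelihood method of edgeR 4.0.16 in R 4.3.3, after TMM scaling and removal of low genes by filterByExpr (minimum count 10). All p-values were adjusted by Benjamini-Hochberg over the genes tested. The standard error is the log2 fold change divided by the root of the F statistic. Ratios and transcript shares used exact permutation tests. Alternatives were DESeq2 1.42.0, other scaling, filters and thresholds, the replicate number as a block, limma 3.58.1 applied to FPKM on the log2 scale with a pseudocount of 1 or 0.1, a spline (5 degrees of freedom) on G and C content from GENCODE 44 and transcript length, available for 89.7% of genes tested and all 8 members, and leaving out each library. On simulated counts for 16966 genes with 200 changed, edgeR made 169 calls, 15 of them false. It recovered 88% of the 2-fold changes and 66% of changes of 0.5 on the log2 scale. The simulation changed fewer genes than the 3749 called here and gave no library a deviation of its own. Its rates may therefore not hold for these data. The 8 genes and the lists were chosen with earlier results of these data known. The text names all 8, the relatives, the genes called in each other list, the nearest patterns and the nearest tested neighbours. Of the 13 trafficking and actin-link genes, it names only NOSTRIN, STX6, FLNA and DNM2. Intervals and floors cover counting error and the spread between preparations only.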

Additional observations from a re-analysis of the deposited data

How the results depend on the processing

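CAV1, CAV2, CAVIN2 and WWTR1 kept their direction and their call under all 15 alternatives, and all 8 genes kept their direction. The calls of the smaller changes moved, and the cause was not tested. CAVIN1 passed the threshold with DESeq2 (0.15) and with the replicate block (0.15), PACSIN2 with the block (-0.12) and with the correction for G and C content and length (-0.16), and CAVIN3 with that correction (0.16). EHD2 missed it with limma on log2(FPKM + 1) and log2(FPKM + 0.1) (both 0.20) and at 0.01 (0.20). Of the 8 genes, the number higher was 2 with DESeq2, the block or the correction and 0 with both limma scales and at 0.01. With a library left out it ran from 0 to 2, the value for EHD2 from 0.14 to 0.24 and that for CAVIN1 from 0.12 to 0.17. Over all genes, 3749 were called, 1720 at 0.01 and 1937 to 5928 with a library left out, the most without TAZ-siRNA replicate 3.

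The labels give no shared source for equal replicate numbers. The deviations of same-numbered libraries correlated at 0.318, 0.0631 and 0.462, not all over the 0.1 set for treating them as pairs, and 4 of 6 libraries correlated best with their own number, so pairing is not settled. With the replicate block, 5122 genes, 2 relatives, 1 trafficking gene and 4 curvature genes were called. With the correction for G and C content and length, these were 1 relative, 1 trafficking gene and 3 clathrin genes. Both limma scales gave 1 clathrin gene, 0 curvature genes and 1 tension gene, and the threshold of 0.01 gave 2 raft, 1 clathrin, 0 curvature and 1 tension gene. Without a filter, 3 clathrin and 0 curvature genes were called, and upper-quartile scaling gave 1 curvature gene. With a library left out, the counts ran from 0 to 1 for relatives, 0 to 2 for trafficking, 2 to 4 for raft, 1 to 6 for clathrin, 0 to 5 for curvature and 1 to 3 for tension genes. The share of NM_016223 in PACSIN3, which differed by -4.77 points (TAZ-siRNA less control-siRNA), was higher by 0.113 points without control-siRNA replicate 1 and by 5.18 without TAZ-siRNA replicate 3, within a range of -10.4 to 5.18.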

Other observations

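CAV1 and CAV2 are neighbours on chromosome 7, and the values of the genes beside each of the 8 genes were read from the same fit. MET, the receptor of hepatocyte growth factor, is the next tested gene after CAV1, at a distance of 111011 bases. It was at 177 ± 9.61 CPM (SD, n = 3) with control-siRNA and 154 ± 9.93 CPM (SD, n = 3) with TAZ-siRNA (log2 fold change -0.20, edgeR adjusted p = 0.0412). On the other side of CAV2, the next tested gene was LOC102724434 at a distance of 213011 bases, which fell by 0.76 on the log2 scale (edgeR adjusted p = 0.00506). CAV2 overlaps LOC107986838, at 1.29 ± 0.222 (SD, n = 3) and 0.867 ± 0.151 CPM (SD, n = 3), far below the level of CAV2 itself.

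The genes next to CAVIN2 lie far from it and were at low levels. NABP1-OT1, at a distance of 123841 bases, was at 0.619 ± 0.101 (SD, n = 3) and 1.04 ± 0.209 CPM (SD, n = 3), higher by 0.75 on the log2 scale (edgeR adjusted p = 0.0453), and CAVIN2-AS1, at 181191 bases, was at 0.783 ± 0.18 (SD, n = 3) and 0.814 ± 0.248 CPM (SD, n = 3). ARFGAP2, 396 bases from PACSIN3, fell from 45.8 ± 2.03 to 35.1 ± 1.16 CPM (each SD, n = 3), with a log2 fold change of -0.39 (edgeR adjusted p = 0.00128). ARFGAP3, beside PACSIN2, fell by 0.33 (edgeR adjusted p = 0.00586), and SMPD1, beside CAVIN3, rose by 0.27 (edgeR adjusted p = 0.00844). ARFGAP2 and ARFGAP3 encode related activators of the GTPase activity of ARF1 at the Golgi, and both lie beside a PACSIN gene. The tested genes on the other sides were DDB2 for PACSIN3, TTLL1 for PACSIN2 and FAM160A2 for CAVIN3. Their log2 fold changes were -0.14, 0.18 and 0.13, and none was called by edgeR. Over all genes tested, 22.1% were called. STAT3 and ATP6V0A1 beside CAVIN1 had log2 fold changes of 0.06 and 0.11, and BICRA and NOP53 beside EHD2 had 0.07 and -0.14, none of them with an adjusted p under 0.05 by edgeR.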
